A study of Homo sapiens with 4 samples.

Results

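YAP1 and WWTR1 (also called TAZ) are transcriptional coactivators that do not bind DNA themselves and act mainly through the TEAD family of DNA-binding factors. In the Hippo pathway the kinases STK3 and STK4 activate the kinases LATS1 and LATS2, which phosphorylate both coactivators. This phosphorylation keeps the coactivators in the cytoplasm or sends them to degradation. In the intestinal epithelium YAP1 is known for its part in regeneration after injury, and its activity is often read from a small set of target genes. Described here are 10 genes of this pathway, chosen by symbol from the 19970 genes of the deposited table: the coactivators YAP1 and WWTR1, the factors TEAD1 and TEAD3, the targets CCN1, CCN2 and ANKRD1, the targets AMOTL2 and LATS2, which also restrain YAP1, and the adaptor AJUBA.

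COLO205 cells are an established line from a human colon adenocarcinoma. They received nonylphenol (NP), an alkylphenol that can bind estrogen receptors, at 1 µM for 24 h, or the solvent DMSO (control), and total RNA was sequenced from 2 samples per group. No other agent or genetic change is named for either group, and both carry whatever this single line carries. The study asked which transcripts change after NP exposure, and for these genes the question was whether the RNA of the coactivators, of their partners or of their targets differed between NP and control cells. RNA counts do not measure the phosphorylation or position of YAP1.

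Counts per sample summed to 13401691 to 16998129, so that 13.4 to 17.0 counts made 1 CPM, the unit of counts scaled to library size. All 10 markers of colon epithelium had at least 10 counts in every sample, with a summed level of 1727 to 1728 FPKM in NP samples and 1711 to 1717 FPKM in control samples. FPKM additionally take the length of the gene into account. These epithelial markers differed widely in level. KRT8 was the highest, at 461.9 and 463.1 FPKM in NP samples and 485.1 and 473.1 FPKM in control samples. KRT20 stood at 0.8918 and 1.0141 FPKM in NP samples and 0.7678 and 0.8368 FPKM in control samples. CDX2 stood at 1.0705 and 1.2305 FPKM in NP samples and 1.271 and 1.0013 FPKM in control samples. CDX1 stood at 1.7566 and 1.5974 FPKM in NP samples and 1.9067 and 1.5511 FPKM in control samples. Summed markers of fibroblasts and smooth muscle stood at 0.856 to 0.958 FPKM in NP samples and 0.982 to 1.03 FPKM in control samples, and endothelial markers at up to 0.0746 FPKM in NP samples and up to 0.0872 FPKM in control samples. At least 10 counts in every sample were reached by 3 of the 10 fibroblast and smooth muscle markers and by 0 of the 8 endothelial ones. COL1A1 stood at 0.307 and 0.348 FPKM in NP samples and 0.397 and 0.2915 FPKM in control samples, and PDGFRB at 0.371 and 0.282 FPKM in NP samples and 0.286 and 0.377 FPKM in control samples. COL1A2, COL3A1, PDGFRA and THY1, and of the endothelial markers EMCN and KDR, were at 0 in all samples. Leukocyte markers summed to 202.0 to 211.9 FPKM in NP samples and 191.1 to 194.9 FPKM in control samples. Nearly all of this was LYZ, which encodes lysozyme, an enzyme that some intestinal epithelial cells also make. Of the 10 leukocyte markers, 2 reached at least 10 counts in every sample. CD14 stood at 1.178 and 0.5433 FPKM in NP samples and 0.8525 and 0.7771 FPKM in control samples. PTPRC, CD3E and MS4A1 were at 0 in all samples. Between samples of the same group the chi-square statistic per gene was 1.88 for NP and 1.94 for control, where sampling of reads alone would give 1. The study's methods speak of 3 parallel experiments per treatment, without naming the sequencing, while 2 samples per group are labelled. No source says whether these samples were grown as separate cultures. The p-values therefore cover the spread among the samples at hand and nothing wider, and that spread may be technical.

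TEAD factors recognise the DNA motif GGAATG, and the promoters of CCN2 and ANKRD1 are the textbook examples. RefSeq promoter windows (GRCh38.p14, 250 bases before to 50 bases after a start) were at hand for 8 of the 10 genes, in 11 windows, and TEAD1 and CCN1 were not among them. The motif, searched on both strands, occurred 3 times in the CCN2 window, 2 times in the ANKRD1 window and 1 time each in windows of YAP1, AMOTL2, LATS2 and AJUBA. No match was found in the windows of WWTR1 and TEAD3 or in the more upstream window of AMOTL2 and of AJUBA. Of all 34943 promoter windows of that length, 4907 hold at least 1 match, 1.37% of them all hold at least 2 and 0.126% at least 3. A match is a string of letters and not a measured binding site.

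The CCN2 promoter is shown whole, since it holds 3 matches in 250 bases, and the other matches are shown in stretches of 30 bases, all read 5′ to 3′ in the direction of the gene, with the motif in capitals. CCN2 lies on the minus strand of chromosome 6 and its stretch is chr6:131951373-131951622, directly before the start.
CCN2: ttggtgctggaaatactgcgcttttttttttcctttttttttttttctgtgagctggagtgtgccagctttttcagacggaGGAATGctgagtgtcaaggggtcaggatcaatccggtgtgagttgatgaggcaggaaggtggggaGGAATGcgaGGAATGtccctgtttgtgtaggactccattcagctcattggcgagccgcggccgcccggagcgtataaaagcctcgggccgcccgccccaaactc
ANKRD1, match at -220 from the start, chr10:90921290-90921319, minus strand: atcaccaccaaaGGAATGgccctctcacat
ANKRD1, match at -128, chr10:90921198-90921227, minus strand: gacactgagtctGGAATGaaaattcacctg
YAP1, match at -162, chr11:102110273-102110302, plus strand: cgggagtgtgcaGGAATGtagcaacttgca
AMOTL2, match at -69 on the opposite strand, chr3:134374499-134374528, minus strand: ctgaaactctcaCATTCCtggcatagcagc
LATS2, match at 10 bases after the start, chr13:21061560-21061589, minus strand: cgtgacgcccgtGGAATGccaacaatgtag
AJUBA, match at -59, chr14:22976884-22976913, minus strand: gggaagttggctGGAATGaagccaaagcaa

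The matches in CCN2 began at 169, 104 and 95 bases before the start, so that only 3 bases lie between the last 2 matches. The windows of AMOTL2 and AJUBA that hold a match belong to the more downstream of their starts. The motif TGANTCA of AP-1, a factor that often binds beside TEAD, occurred 1 time in the ANKRD1 window, starting 195 bases before the start, and in no other of the 11 windows (7.72% of all windows hold it). No window held a CArG box, the motif of the factor SRF, which 1.30% of all windows hold.

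**Figure D1:**
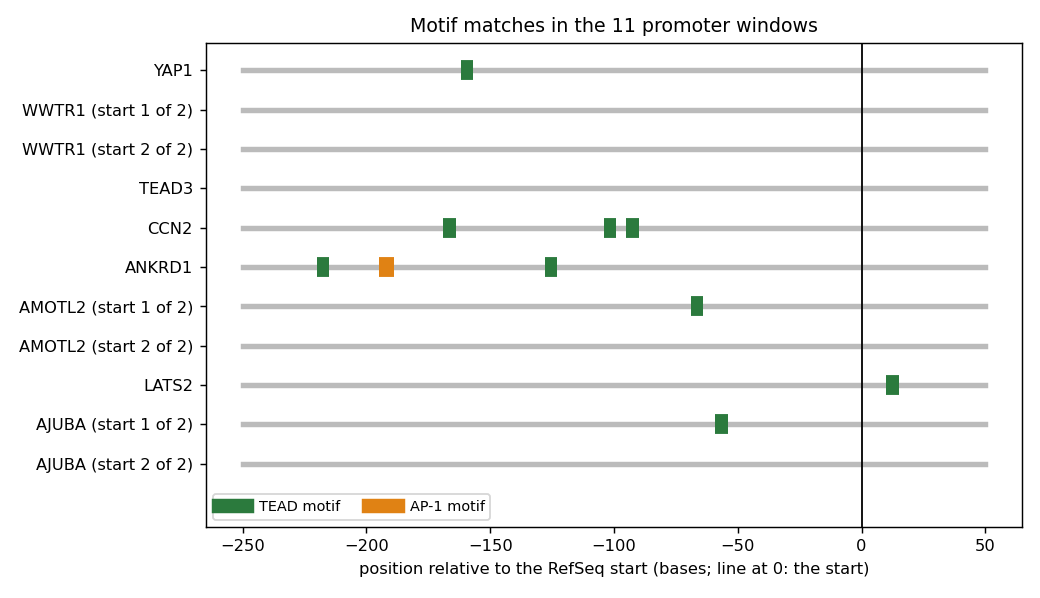
Matches of the TEAD motif (green) and of the AP-1 motif (orange) in the 11 promoter windows of 8 genes, drawn as blocks on grey bars against the position in bases from the RefSeq start; genes with 2 windows have their starts numbered by genome position. CCN2 has 3 green blocks, ANKRD1 has 2 and 1 orange block, and both windows of WWTR1 and that of TEAD3 have none.

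Per gene length, YAP1 was the highest of the 10 genes and ANKRD1 the lowest. Over the 4 samples the authors' FPKM averaged 27.5 ± 1.7 for YAP1, 19.5 ± 1.0 for AMOTL2, 14.6 ± 1.1 for AJUBA, 10.1 ± 0.30 for TEAD1, 7.49 ± 0.30 for LATS2 and 7.03 ± 0.56 for TEAD3 (SD, n = 4). Far below them came WWTR1 at 1.51 ± 0.097, CCN2 at 1.35 ± 0.26 and CCN1 at 0.516 ± 0.019 (same scale, SD, n = 4). The sample ranges of LATS2 and TEAD3 overlapped, as did those of WWTR1 and CCN2, and all other neighbours in this order were apart in all 4 samples. The mean FPKM of YAP1 was above that of 87.2% of the 12616 genes tested, that of CCN2 above 20.4% and that of CCN1 above 10.1%. Of the 8 genes with a promoter window, CCN2 and ANKRD1 had the most TEAD motifs in those 300 bases and the lowest mean FPKM, with the samples of CCN2 overlapping those of WWTR1.

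**Figure D2:**
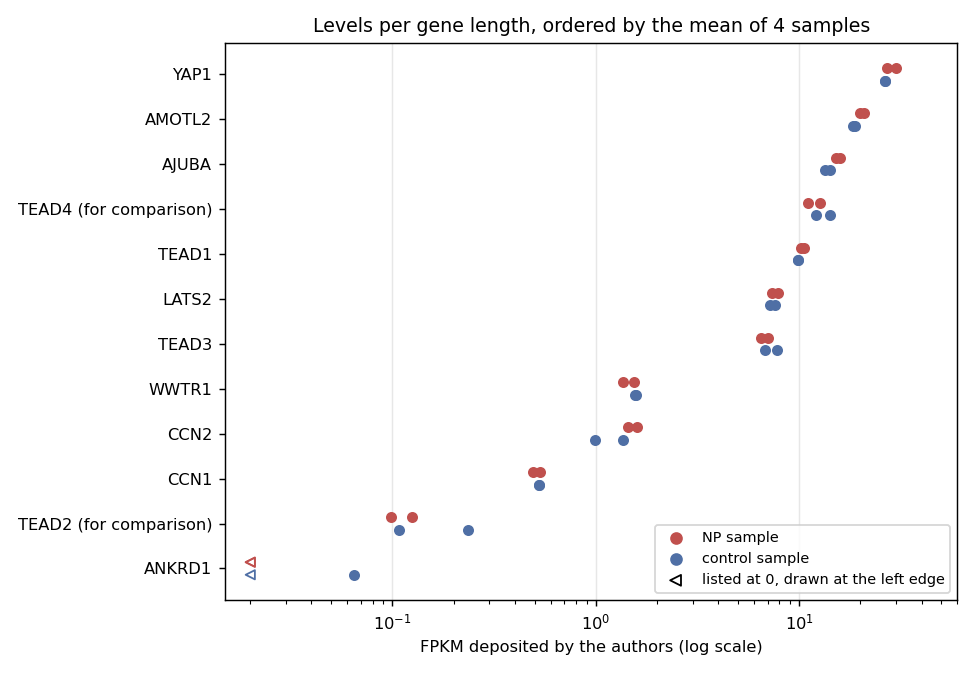
FPKM of the 10 genes and, for comparison, of TEAD4 and TEAD2 in each sample, on a log axis, with NP samples in red above control samples in blue; samples listed at 0 are open triangles at the left edge. YAP1 is above 26 FPKM in every sample, while CCN1 is below 0.53 FPKM.

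YAP1 lies on the plus strand of chromosome 11 from 102110447 to 102233424 (GRCh38, as all coordinates of genes here). Its level was 170.9 and 189.6 CPM in NP samples, against 166.1 and 167.0 CPM in control samples. NP replicate 2 stood above the other 3 samples, and the groups did not overlap. The log2 fold change was 0.11 (standard error 0.042, 95% interval 0.026 to 0.19), which did not pass at adjusted p = 0.15 in edgeR's quasi-likelihood test. Without NP replicate 1 it was 0.19 and passed (adjusted p = 0.022, edgeR), and without NP replicate 2 it was 0.037 (adjusted p = 0.83, edgeR), so the value rests on NP replicate 2. Over 14 alternatives in all, the adjusted p of YAP1 ranged between these 2 values.

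WWTR1, the paralogue of YAP1, lies on the minus strand of chromosome 3 from 149517235 to 149736714. Its level was 11.5 and 12.9 CPM in NP samples, against 13.2 and 13.1 CPM in control samples. Both NP samples were lower than both control samples, but the log2 fold change of -0.11 (standard error 0.13, 95% interval -0.37 to 0.15) did not pass (adjusted p = 0.75, edgeR). It was -0.025 without NP replicate 1 and -0.19 without NP replicate 2. Within each sample the FPKM of YAP1 was 19.8 and 19.6 times that of WWTR1 in NP samples and 16.8 and 17.0 times in control samples. The ratio was thus higher in both NP samples, with means of 19.7 ± 0.15 in NP samples and 16.9 ± 0.12 in control samples (SD, n = 2 each). This ratio was chosen after its values were seen, and with 2 samples per group an exact two-sided permutation test cannot go below p = 0.333, the value it gave here. YAP1 shares 9.97% of its annotated exon bases, and WWTR1 9.45%, with a gene on the opposite strand (WWTR1-AS1 in the case of WWTR1). Whether the counting used strand is not given in the sources used here, so reads of these partners cannot be told apart from those of YAP1 and WWTR1.

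TEAD1, on the plus strand of chromosome 11 from 12674421 to 12944737, had 113.1 and 108.9 CPM in NP samples, against 105.3 and 106.1 CPM in control samples. TEAD3, on the minus strand of chromosome 6 from 35473597 to 35497079, had 19.97 and 21.4 CPM in NP samples, against 20.6 and 23.8 CPM in control samples. The groups were apart for TEAD1, with both NP samples higher, and overlapped for TEAD3. The log2 fold changes were 0.07 (standard error 0.047, 95% interval -0.022 to 0.17) for TEAD1 and -0.10 (standard error 0.10, 95% interval -0.31 to 0.10) for TEAD3, and neither passed (adjusted p = 0.52 and 0.71, edgeR). Without NP replicate 1 the value of TEAD1 was 0.043. The sign of TEAD3 rested on control replicate 2, without which its log2 fold change was 0.0071.
Of the other 2 TEAD genes, named here to complete the family, TEAD4 was expressed at 11.1 and 12.6 FPKM in NP samples, against 12.2 and 14.2 FPKM in control samples. TEAD2 had only 5 and 5 counts in NP samples, against 11 and 5 counts in control samples. Of the summed FPKM of the 4 TEAD genes, TEAD1 made 37.3% and 33.99% in NP samples and 34.02% and 30.9% in control samples. TEAD4 made 39.2% and 42.1% in NP samples and 41.9% and 44.4% in control samples. The COLO205 samples thus carried RNA of TEAD1, TEAD3 and TEAD4 side by side, in shares that overlapped between the groups.

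CCN1 and CCN2 encode secreted proteins that bind integrins in the extracellular matrix, and they are the most used readouts of YAP1 activity. CCN1, on the plus strand of chromosome 1 from 85580761 to 85583950, had 22 and 16 counts in NP samples, against 20 and 20 counts in control samples, or 1.30 and 1.195 CPM against 1.27 and 1.28 CPM. These values overlapped, and the log2 fold change was -0.03 (standard error 0.41, 95% interval -0.85 to 0.79, adjusted p = 0.99 in edgeR). The ratio of summed counts was 0.982, with an exact 95% counting interval of 0.613 to 1.57. Counting error alone thus does not exclude ratios within that interval.
CCN2, on the minus strand of chromosome 6 from 131948176 to 131951372, had 57 and 50 counts in NP samples, against 50 and 36 counts in control samples. As levels these were 3.37 and 3.74 CPM in NP samples and 3.18 and 2.30 CPM in control samples. Both NP samples were higher, and control replicate 2 was the lowest of the 4. The log2 fold change was 0.37 (standard error 0.27, 95% interval -0.17 to 0.90), the highest of the 9 genes tested, and it did not pass (adjusted p = 0.57, edgeR). It was 0.15 without control replicate 2 and 0.62 without control replicate 1. The ratio of summed counts was 1.29, with an exact 95% counting interval of 0.959 to 1.73. A gene on the opposite strand shares 8.34% of the exon bases of CCN2.

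ANKRD1, on the minus strand of chromosome 10 from 90912096 to 90921276, encodes a nuclear ankyrin-repeat protein that is abundant in heart muscle. It had 0 and 0 counts in NP samples, against 0 and 2 counts in control samples, and was therefore not tested. A count of 0 allows up to 3 counts over a group, or 0.0990 CPM in the NP group, and the 2 counts of the control group also lay under this floor. Both groups were thus under the floor, so no fold change was taken. The intervals and floors cover counting error only.

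AMOTL2 and LATS2 are targets of YAP1 that act against it, since AMOTL2, an angiomotin, can hold YAP1 at cell junctions and LATS2 is one of the kinases that phosphorylate it. AMOTL2, on the minus strand of chromosome 3 from 134355874 to 134375479, had 119.8 and 124.2 CPM in NP samples, against 110.1 and 112.3 CPM in control samples. Both NP samples were higher than both control samples, by 9.58% in the fit (95% interval 2.84% to 16.8%). On the log2 scale this was 0.13 ± 0.046 (standard error), which did not pass over all genes (unadjusted p = 0.0055 and adjusted p = 0.095, edgeR), and its adjusted p was 0.055 to 0.40 over the 14 alternatives. AMOTL2 was the main angiomotin gene, with 79.1% and 79.2% of the summed FPKM of AMOT, AMOTL1 and AMOTL2 in NP samples and 76.2% and 77.3% in control samples. The annotation places RPL39P5, a pseudogene of a ribosomal protein, on 3.12% of the exon bases of AMOTL2 in the same direction, and reads there are uncertain.
LATS2, on the minus strand of chromosome 13 from 20973036 to 21061586, had 44.4 and 41.4 CPM in NP samples, against 42.3 and 40.3 CPM in control samples. The groups overlapped, and the difference of 0.06 ± 0.074 (standard error) on the log2 scale did not pass (95% interval -0.091 to 0.21, adjusted p = 0.79 in edgeR). With 1 sample left out this value lay between 0.0031 (without NP replicate 1) and 0.10 (without NP replicate 2), so it rests on single samples. Its FPKM was 1.84 and 2.01 times that of the paralogue LATS1 in NP samples and 1.80 and 1.86 times in control samples.

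AJUBA was the only one of the 10 genes that passed the test. It encodes a LIM-domain adaptor of cell junctions that binds LATS kinases and lowers their activity towards YAP1, and it lies on the minus strand of chromosome 14 from 22971177 to 22982551. Its level was 93.6 and 89.6 CPM in NP samples, against 78.3 and 83.1 CPM in control samples. Both NP samples stood above both control samples, with means of 91.6 ± 2.8 CPM in NP samples and 80.7 ± 3.4 CPM in control samples (SD, n = 2 each). AJUBA rose by 13.6% in the fit (95% interval 5.62% to 22.3%), or 0.18 ± 0.053 (standard error) on the log2 scale, at an unadjusted p of 0.00090 and an adjusted p of 0.029 in edgeR. The call was lost without control replicate 1 (0.14, adjusted p = 0.34) or without NP replicate 1 (0.15, adjusted p = 0.33) in edgeR, nor in DESeq2 (0.18, adjusted p = 0.22). Over the 14 alternatives its log2 fold change was 0.14 to 0.23, and 9 of them passed. AJUBA also led its family of LIM-domain adaptors, with 91.2% and 90.6% of the summed FPKM of AJUBA, LIMD1 and WTIP in NP samples and 88.3% and 90.0% in control samples. Another protein-coding gene in the same direction shares 50 of its exon bases and had 0 counts in all samples.

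**Figure D3:**
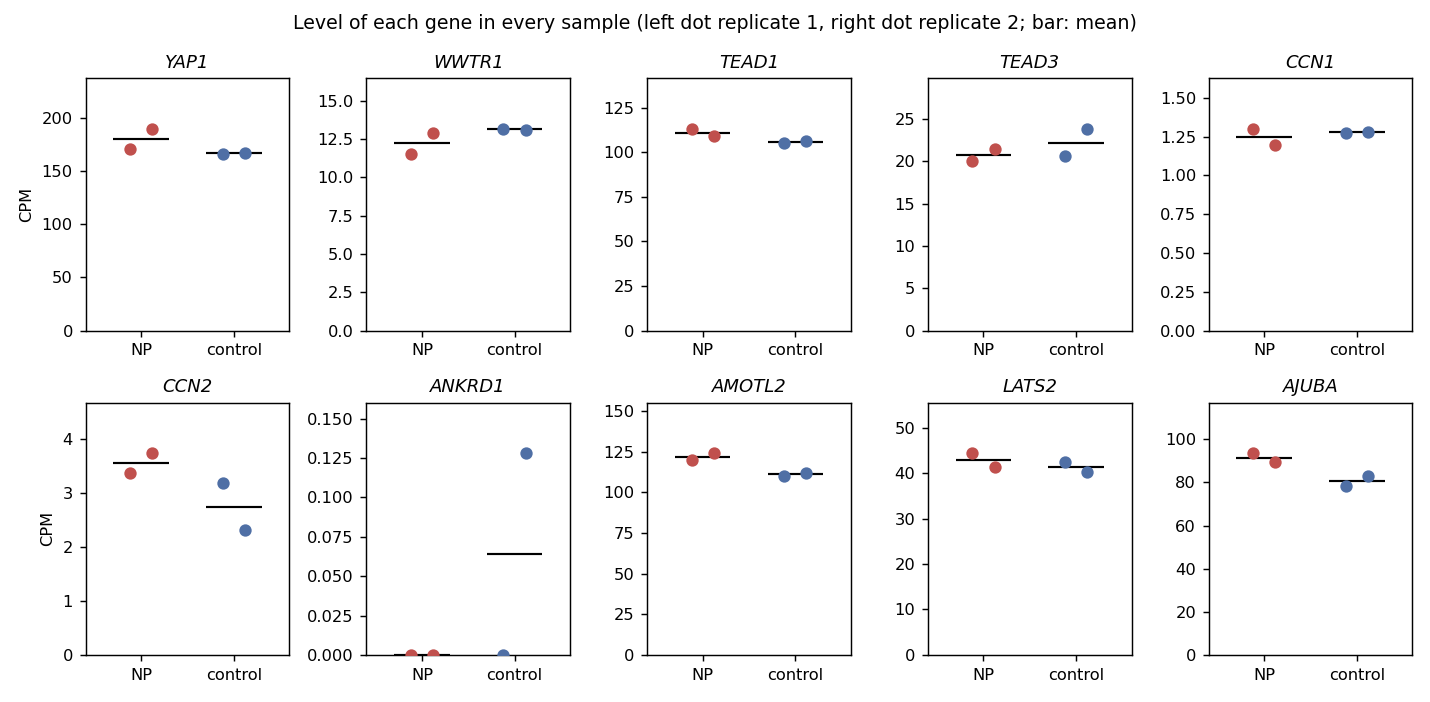
CPM of each of the 10 genes in every sample, 1 panel per gene with its own axis from 0, NP samples in red on the left and control samples in blue on the right, with a bar at the mean. AJUBA, AMOTL2, YAP1, TEAD1 and CCN2 are higher in both NP samples, WWTR1 is lower in both, and the remaining panels overlap.

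Of the 10 genes, 9 passed the filter on low counts and were tested. In edgeR's quasi-likelihood test 1 of the 9 rose at an adjusted p under 0.05, none fell and 8 did not pass. Over all 12616 genes tested, 4.06% passed by this rule, 2.35% higher and 1.70% lower. With p unadjusted and under 0.05, AJUBA, AMOTL2 and YAP1 were higher and none was lower, where 15.1% of all genes tested passed, 8.17% higher and 6.97% lower. DESeq2 gave an adjusted p for 4 of the 9 genes and called none of those. The CPM of the groups did not overlap for 6 of the 9 genes, 5 with NP higher and 1 with NP lower, against 44.2% of all genes tested in either direction. The log2 fold change was above 0 for 6 of the 9 genes, as for 50.5% of all genes tested. The median log2 fold change of the 9 genes was 0.07 and their range -0.11 to 0.37, beside a median of 0.0015 over all genes tested. None reached a log2 fold change beyond 1, which 0.428% of all genes tested did at an unadjusted p under 0.05.

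**Figure D4:**
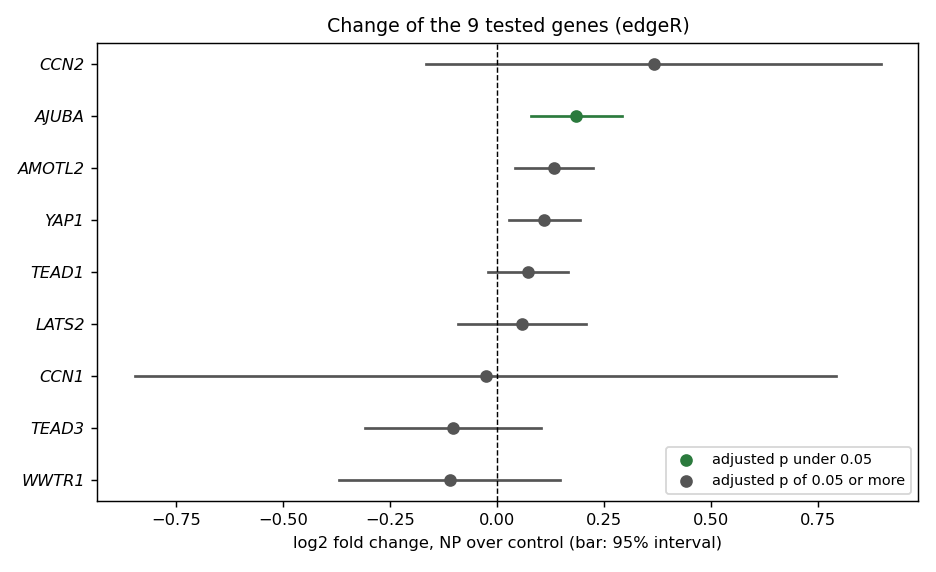
log2 fold change of NP over control for the 9 genes tested, with 95% intervals from edgeR; green marks an adjusted p under 0.05. Only the point of AJUBA (0.18) is green, the intervals of AMOTL2 and YAP1 also lie above 0, and those of CCN1 and CCN2, the genes with the fewest counts, are the widest.

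The wider pathway was read from 4 lists, chosen with earlier results of these data known. PTPN14 is in both the list of other targets and the Hippo list (log2 fold change -0.13, unadjusted p = 0.030, edgeR). It is therefore counted in each. Of 30 other genes known as YAP-TEAD targets, 22 were tested, of which 2 rose, 1 fell and 19 did not pass in edgeR (median log2 fold change 0.03), beside 2.35% higher and 1.70% lower over all genes tested. With p unadjusted and under 0.05, 4 of the 22 were higher and 4 lower in edgeR. At that p, 8.17% of all genes tested were higher and 6.97% lower. IGFBP3, a secreted binding protein of insulin-like growth factors, had 239.9 and 239.1 CPM in NP samples, against 178.3 and 193.3 CPM in control samples. It rose by 0.37 on the log2 scale (standard error 0.039, adjusted p = 1.07e-10, edgeR). ANXA1, an annexin that binds phospholipids, had 194.8 and 194.8 CPM in NP samples, against 155.3 and 165.5 CPM in control samples, and rose by 0.28 on the log2 scale (standard error 0.040, adjusted p = 7.93e-07, edgeR). Both genes passed in all 14 alternatives. ASAP1, an activating protein of ARF GTPases, had 23.2 and 26.2 CPM in NP samples, against 32.1 and 28.4 CPM in control samples. It fell by 0.30 on the log2 scale (standard error 0.092, adjusted p = 0.048, edgeR), and passed in 6 of 13 alternatives. ASAP1 did not pass with either other filter (adjusted p = 0.053 each, edgeR) or with gene length offsets (adjusted p = 0.069, edgeR). It also did not pass in the 2 limma settings (adjusted p = 0.31 each). Nor did it pass without control replicate 1 (-0.21) or without NP replicate 1 (-0.21).
CCDC80, the secreted matrix protein at the centre of the study, is also in this list. The study picked it with these samples, so its direction here is not independent evidence. Its rule was a log2 fold change beyond 1 with a p-value under 0.05, and it also reported lower CCDC80 by qPCR in COLO205 and other colorectal cancer lines. Here CCDC80 had 18 and 8 counts in NP samples, against 36 and 29 counts in control samples. The log2 fold change was -1.27 (unadjusted p = 0.0026 and adjusted p = 0.058, edgeR), which meets the study's rule but not the adjusted threshold. CCDC80 passed in 2 of the 12 alternatives that gave it an adjusted p, edgeR's exact test (adjusted p = 0.018) and the replicate block (adjusted p = 0.039), and over the 12 its adjusted p was 0.018 to 0.47. The highest FPKM of the list belonged to AREG, a ligand of the EGF receptor, at 607.7 and 607.4 in NP samples and 637.8 and 656.8 in control samples (log2 fold change -0.08, adjusted p = 0.054, edgeR). AREG was lower and passed in 5 of 14 alternatives, namely RLE size factors (adjusted p = 0.045), library size only (0.028), gene length offsets (-0.13, 4.64e-05), the replicate block (0.047) and without control replicate 1 (0.037), all in edgeR. Untested for want of counts were 8 targets, among them FOXF2 and RBMS3, which had 0 counts in all samples.

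Of 38 genes of the Hippo kinase cassette and its regulators, 35 were tested, of which none rose, 1 fell and 34 did not pass (edgeR; an unadjusted p under 0.05 gave 2 higher and 6 lower; DESeq2 called none; median log2 fold change -0.02). Over all genes tested, 4.06% passed at the adjusted p, and 1 of 35 is no larger a share than that. At the unadjusted p 15.1% of all genes passed, 8.17% higher and 6.97% lower. The 6 lower of 35 are a larger share than the latter. The CPM of the groups did not overlap with NP lower for 13 of the 35 and with NP higher for 6. Over all genes tested these shares were 21.7% and 22.5%. The list was chosen with earlier results of these data known and was not tested as a set, so these shares only describe it. The gene that fell was TAOK1, a kinase that activates STK3 and STK4. It had 131.7 and 126.0 CPM in NP samples, against 143.9 and 145.8 CPM in control samples, or -0.17 ± 0.043 (standard error) on the log2 scale, at an adjusted p of 0.013 in edgeR. TAOK1 passed in 7 of 14 alternatives. It did not pass with gene length offsets (-0.12, adjusted p = 0.11, edgeR), in DESeq2 (-0.17, adjusted p = 0.11) or in the 2 limma settings (adjusted p = 0.30 and 0.28). Nor did it pass without either control sample (-0.17 and -0.16) or without NP replicate 2 (-0.14). The most abundant gene of this list per length was YWHAZ, a protein that binds phosphorylated YAP1 and holds it in the cytoplasm, with 259.7 and 265.2 FPKM in NP samples and 259.0 and 261.2 FPKM in control samples (adjusted p = 0.78, edgeR).
Of the 6 genes in the list of the other TEAD factors and the VGLL cofactors, which compete with YAP1 for TEAD, only TEAD4 and VGLL4 had enough counts to be tested. The log2 fold change of TEAD4 was -0.16, at an adjusted p of 0.44 in edgeR, and it was -0.036 without control replicate 2, -0.063 without NP replicate 1, -0.25 without NP replicate 2 and -0.27 without control replicate 1. VGLL4 was at 13.5 and 13.3 FPKM in NP samples and 13.4 and 13.4 FPKM in control samples (log2 fold change 0.0016, adjusted p = 0.99, edgeR). Neither was at an unadjusted p under 0.05. DESeq2 gave no adjusted p for TEAD4 and did not call VGLL4. VGLL1, VGLL2 and VGLL3 had 0 counts in every sample.
CCN1, CCN2 and ANKRD1 are also known targets of the actin-regulated cofactors MRTFA and MRTFB with the factor SRF. Of 23 genes of that list 18 were tested, of which none passed in either direction (edgeR; an unadjusted p under 0.05 gave 1 higher and 5 lower; DESeq2 and edgeR's exact test called none, while gene length offsets and the replicate block each called 1 lower; median log2 fold change -0.0088). Over all genes tested, 8.17% were higher and 6.97% lower at that unadjusted p. Its most abundant gene was ACTG1, a cytoplasmic actin, at 1511 and 1545 FPKM in NP samples and 1488 and 1463 FPKM in control samples (adjusted p = 0.15, edgeR).

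**Figure D5:**
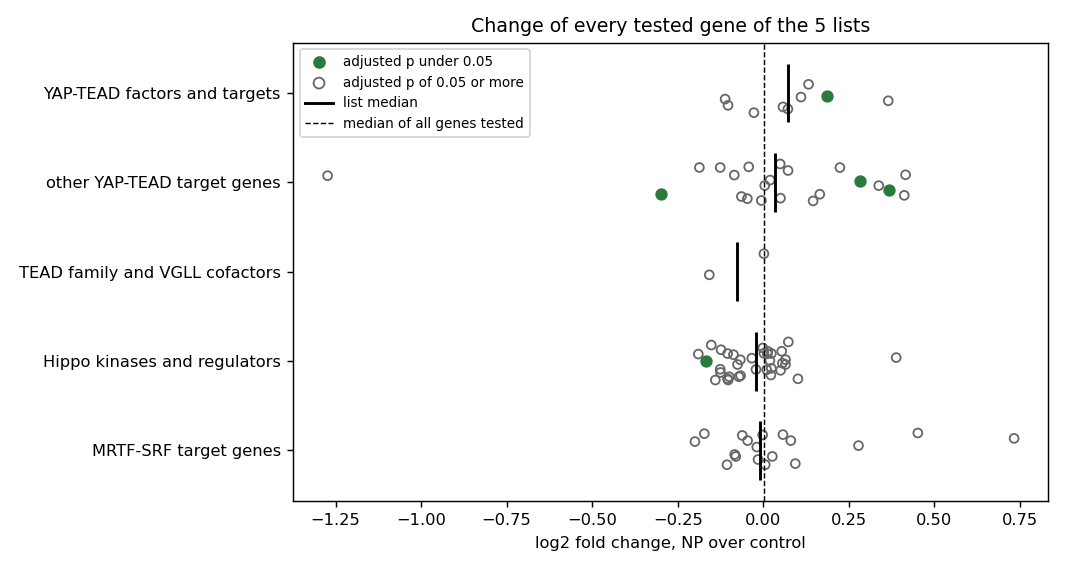
log2 fold change of NP over control for every tested gene of the 10 genes and of the 4 wider lists, 1 circle per gene with the height within a row at random; filled green circles have an adjusted p under 0.05, thick bars are list medians and the dashed line is the median of all genes tested. The green circles are AJUBA, then ASAP1, ANXA1 and IGFBP3, then TAOK1, and the list medians lie between -0.08 and 0.07.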

How the data were processed

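The authors deposited raw counts of reads per gene and FPKM for 2 NP and 2 control samples of COLO205 cells. HISAT2, HTSeq and the build GRCh38 appear in the submitters' processing notes; tool versions, annotation release and strand setting were not given in the sources used here. Deposited FPKM equal the count divided by gene length and by summed counts. All samples were used, grouped by their labels; depth was 13401691 to 16998129 counts per sample, which limits genes with few counts. In edgeR 4.0.16 under R 4.3.3, genes that passed filterByExpr with a minimum count of 10 were scaled with TMM (factors 0.9963 to 1.0037) and tested with the quasi-likelihood test without other terms. Benjamini-Hochberg adjustment of the p-values ran over all 12616 genes, and the common dispersion was 0.0007043. CPM are TMM-scaled. Alternatives were DESeq2 1.42.0, limma 3.58.1 on log2(FPKM + 1) and log2(FPKM + 0.1), other scalings, tests, filters and thresholds, offsets for the deposited gene length, a replicate block, and each sample left out. Steps were tested on simulated counts.

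The 10 genes and the lists were chosen with earlier results of these data known. Named from each list were genes past the adjusted p (up to 4), its highest FPKM, and CCDC80. Other TEAD genes, paralogues and genes at 0 were named after their values were seen. Exon overlaps came from GENCODE 29. A planned comparison of protein sequences was not run.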

Additional observations from a re-analysis of the deposited data

How the results depend on the processing

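Over all genes, 297 were higher and 215 lower in the analysis reported, against 109 and 72 in DESeq2. With limma they were 45 and 16 on log2(FPKM + 1), and 53 and 18 on log2(FPKM + 0.1). DESeq2 gave no adjusted p for 7827 of the 12616 genes, so a gene or list without a call there may not have been judged. At an unadjusted p under 0.05 in edgeR, 1031 genes were higher and 879 lower, and 31 and 23 at a log2 fold change beyond 1 with that p. With 1 sample left out, 134 to 283 were higher and 87 to 160 lower. Where 1 sample remains in a group, it is assumed to vary like the other group.
Of the 10 YAP-TEAD genes, the number higher was 0 in DESeq2, in both limma settings and at the fold rule, 0 to 1 with 1 sample left out and 3 at an unadjusted p under 0.05. None was lower in any of 16 alternatives. DESeq2 gave no adjusted p for 5 of them (WWTR1, TEAD3, CCN1, CCN2 and LATS2).
At an unadjusted p under 0.05 in edgeR, 8.17% of all genes tested were higher and 6.97% lower. Among the 22 other targets tested, that p gave 4 higher and 4 lower, and the fold rule gave 0 higher. The number lower was 2 with RLE size factors, with library size only and in the exact test, 0 in DESeq2 (which gave ASAP1 no adjusted p), with both other filters and in both limma settings, and 0 to 1 with 1 sample left out. Among the 35 Hippo genes tested, an unadjusted p under 0.05 gave 2 higher and 6 lower. The number lower was 2 with library size only, 0 in DESeq2, in both limma settings and at the fold rule, and 0 to 1 with 1 sample left out. Among the 18 MRTF-SRF targets tested, an unadjusted p under 0.05 gave 1 higher and 5 lower, and gene length offsets gave 1 lower.
Same-numbered samples did not deviate together (r = -0.0090 across 12616 genes, which are not independent replicates). With 2 samples per group this value cannot show whether same-numbered samples shared a culture or a day. With the replicate block, 372 genes were higher and 280 lower, 1 of the 10 genes was higher (AJUBA, 0.18, adjusted p = 0.011 in edgeR), and the number lower was 3 among the other targets, 2 among the Hippo genes and 1 among the MRTF-SRF targets.
The sign of the log2 fold change turned for TEAD3 (-0.2042 to 0.0071 with 1 sample left out, the highest without control replicate 2), CCN1 (-0.0943 to 0.0256, the highest without NP replicate 2) and VGLL4 (-0.0004 with RLE size factors, -0.0049 with library size only, -0.0008 in DESeq2, -0.0053 and -0.0056 with limma, -0.0007 without control replicate 1, and -0.0128 to 0.0142 with 1 sample left out, the lowest without NP replicate 1). None of these passed, and the cause was not tested.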
